A study of Mus musculus with 24 samples.

Results

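The Hox cluster genes were all genes on the array whose platform symbol was Hox, a cluster letter from A to D and a paralog number. This rule, which used names and no measured value, found 38 of the 17741 genes with a named probe, on 40 of the 22439 probes. Where a gene had several probes, the probe that was brightest on average was read. The genes were then divided at a mean of 6.5 on the log2 scale, with 19 genes above it and 19 at or below it. Nearest to this level, Hoxc11 (6.56), Hoxa2 (6.83) and Hoxa3 (6.84) lay above it, and Hoxd8 (6.44), Hoxb7 (6.41) and Hoxc13 (6.30) lay below it.

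The study compared C57BL/6 mice labelled BAP1 wild type (WT) with mice labelled BAP1 knockout (KO). BAP1 is a deubiquitinase that removes ubiquitin from histone H2A, and tamoxifen was injected to delete its gene systemically. Whether the WT mice received tamoxifen, which Cre driver and floxed allele were used, and the animals' ages were not given in the sources used here. Total RNA came from either of 2 sorted bone marrow populations: LSK cells, which are lineage-negative, Sca1-positive and Kit-positive and hold the stem cells, and myeloid progenitors (MP), which are lineage-negative, Sca1-negative and Kit-positive. The 24 one-colour arrays came from 8 mice with 3 arrays each. LSK WT cells came from mice 1 and 3, LSK KO cells from mice 2 and 4, MP WT cells from mice 5 and 6, and MP KO cells from mice 7 and 8, so that no mouse gave both populations. The mouse was the replicate, with n = 2 per group, and its 3 arrays were averaged before any comparison. A difference was called at a limma p-value under 0.05 after Benjamini-Hochberg adjustment over all 22439 probes.

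Hox genes encode homeodomain transcription factors that lie in 4 clusters, and their order along a cluster follows their order of use along the body axis of the embryo. In the blood-forming system, mainly genes of the A and B clusters are expressed, at high levels in stem and early progenitor cells, and their expression declines as cells differentiate. Trithorax-type complexes around the methyltransferase MLL keep the clusters active, Polycomb complexes keep them silent, and Hox proteins bind DNA together with Meis and Pbx cofactors. The histone H2A ubiquitin that BAP1 removes is placed by Polycomb repressive complex 1, and Asxl proteins are partners of BAP1.

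The A cluster held most of the genes whose level differed between the populations, and its promoters are shown for that reason. The RefSeq promoter table for the assembly GRCm38.p6 held 22 of the 38 genes. The sequences below are the 250 bases before the annotated start of 4 genes that were higher in LSK cells (Hoxa5, Hoxa7, Hoxa9 and Hoxa10) and of their neighbour Hoxa11, which was at or below the level of 6.5. All are on the minus strand and are written 5′ to 3′, with each CG dinucleotide in capitals. The windows lie at chr6:52204588-52204837 for Hoxa5, chr6:52218574-52218823 for Hoxa7, chr6:52227371-52227620 for Hoxa9, chr6:52240855-52241104 for Hoxa10 and chr6:52245811-52246060 for Hoxa11.
Hoxa5: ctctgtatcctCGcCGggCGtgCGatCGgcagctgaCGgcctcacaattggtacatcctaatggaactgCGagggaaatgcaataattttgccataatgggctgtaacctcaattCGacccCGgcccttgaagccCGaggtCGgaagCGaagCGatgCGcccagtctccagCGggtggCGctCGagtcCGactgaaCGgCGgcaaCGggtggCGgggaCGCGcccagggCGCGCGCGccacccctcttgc
Hoxa7: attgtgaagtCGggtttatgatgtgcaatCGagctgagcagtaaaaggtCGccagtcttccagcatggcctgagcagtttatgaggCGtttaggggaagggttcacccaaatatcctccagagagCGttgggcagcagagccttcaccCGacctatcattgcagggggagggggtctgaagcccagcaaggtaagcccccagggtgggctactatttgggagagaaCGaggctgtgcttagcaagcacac
Hoxa9: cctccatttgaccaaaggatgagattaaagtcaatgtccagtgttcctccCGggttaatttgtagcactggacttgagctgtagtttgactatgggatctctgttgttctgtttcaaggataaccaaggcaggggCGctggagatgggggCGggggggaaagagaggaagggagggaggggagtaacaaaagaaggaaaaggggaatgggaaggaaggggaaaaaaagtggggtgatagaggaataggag
Hoxa10: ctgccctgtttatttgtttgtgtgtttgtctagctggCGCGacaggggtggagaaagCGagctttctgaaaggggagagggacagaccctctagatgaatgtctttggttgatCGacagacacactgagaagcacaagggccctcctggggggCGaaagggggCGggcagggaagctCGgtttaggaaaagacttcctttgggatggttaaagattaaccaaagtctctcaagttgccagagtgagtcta
Hoxa11: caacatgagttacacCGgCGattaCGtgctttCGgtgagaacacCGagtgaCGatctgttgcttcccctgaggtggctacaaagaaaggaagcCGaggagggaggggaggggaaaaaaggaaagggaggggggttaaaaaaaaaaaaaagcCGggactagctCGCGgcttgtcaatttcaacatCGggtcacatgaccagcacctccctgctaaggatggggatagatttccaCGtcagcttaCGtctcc

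CG dinucleotides are the sites of DNA methylation and are dense in many promoters that Polycomb and MLL complexes bind. The windows of Hoxa5, Hoxa7, Hoxa9, Hoxa10 and Hoxa11 held 28, 7, 3, 7 and 13 of them. The median over all 32851 RefSeq windows of the same length was 6, and the median over the 22 Hox windows was 12. The windows of 4 genes that moved together between populations therefore ran from 3 to 28 and were not alike in this feature. The Meis motif TGACAG, searched on both strands, occurred in the windows of Hoxa2 and Hoxa3 and in 15.9% of all windows. The Pbx–Hox composite motif TGATNNAT, also searched on both strands, occurred in the windows of Hoxa2, Hoxb1 and Hoxb8 and in 7.68% of all windows.

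Before the Hox genes were compared, the labels were checked. Bap1 was not lower in KO mice: its log2 levels were 11.55 and 11.45 in the LSK WT mice, 11.96 and 11.84 in the LSK KO mice, 11.54 and 11.59 in the MP WT mice and 11.67 and 11.85 in the MP KO mice. Where its probe lies relative to the deleted part is not given, so it checks nothing about the deletion. The mean log2 level of 8 LSK markers lay between 10.97 and 11.73 in LSK mice and between 9.34 and 9.50 in MP mice, while that of 8 myeloid progenitor markers lay between 11.56 and 12.77 in LSK mice and between 13.29 and 13.48 in MP mice. Ly6a, the gene of Sca1, had no named probe. Kdm5d, a gene of the Y chromosome, read 7.88 in mouse 1 and 8.15 in mouse 5, both WT, and 5.93 to 6.02 in the other mice. No KO mouse had this signal, so sex and genotype may be partly confounded. Results were also computed without mice 1 and 5, and the part of sex in the Hox values was not tested. Bone marrow stroma, which can express Hox genes of its own, was read from 10 markers. Of these 6 had a mean at or below 6.5, while Pdgfrb (9.98 to 11.17), Cxcl12 (7.28 to 8.68), Col1a1 (6.49 to 7.69) and Lepr (6.56 to 7.23) had a mean above it. The mean of all 10 lay between 6.78 and 6.96 in every mouse, 0 were called between KO and WT in either population by limma, where 2 in LSK cells and 0 in MP cells had an unadjusted p under 0.05, and their part in the Hox values was not tested.

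Over all arrays 19 of the 38 genes were dim. The A cluster had 7 of 10 genes above 6.5, the B cluster 4 of 10, the C cluster 5 of 9 and the D cluster 3 of 9. The dim genes included Hoxb4, a gene known for expanding hematopoietic stem cells when overexpressed, with mouse means between 5.76 and 5.93. They also included the posterior genes Hoxa11, between 5.95 and 5.99, and Hoxa13, between 5.84 and 5.95. The 25th percentile of each array lay between 6.15 and 6.18, so these readings were among the lowest on the array. Probes differ in their response, so a dim reading can come from a low level or from a probe that responds poorly. It does not show that a gene is absent, and no level is set against that of another gene here.

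Hox genes above 6.5 fell into a variable and a flat set. Over the 8 mouse means, the 9 genes that were called between WT populations spanned 0.75 (Hoxa2) to 3.42 (Hoxb2), with a median of 2.67. The other 10 genes above 6.5 (Hoxa4, Hoxb1, Hoxc4, Hoxc6, Hoxc8, Hoxc10, Hoxc11, Hoxd3, Hoxd10 and Hoxd13) spanned 0.19 (Hoxc11) to 0.65 (Hoxc10), with a median of 0.51. The 9 genes were chosen by that comparison, so their wider span describes them and supports nothing further. The standard deviation between arrays of a mouse had a median of 0.11 over the 9 genes, against 0.31 between mice of a group, so that most of their spread within a group lay between animals.

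**Figure D1:**
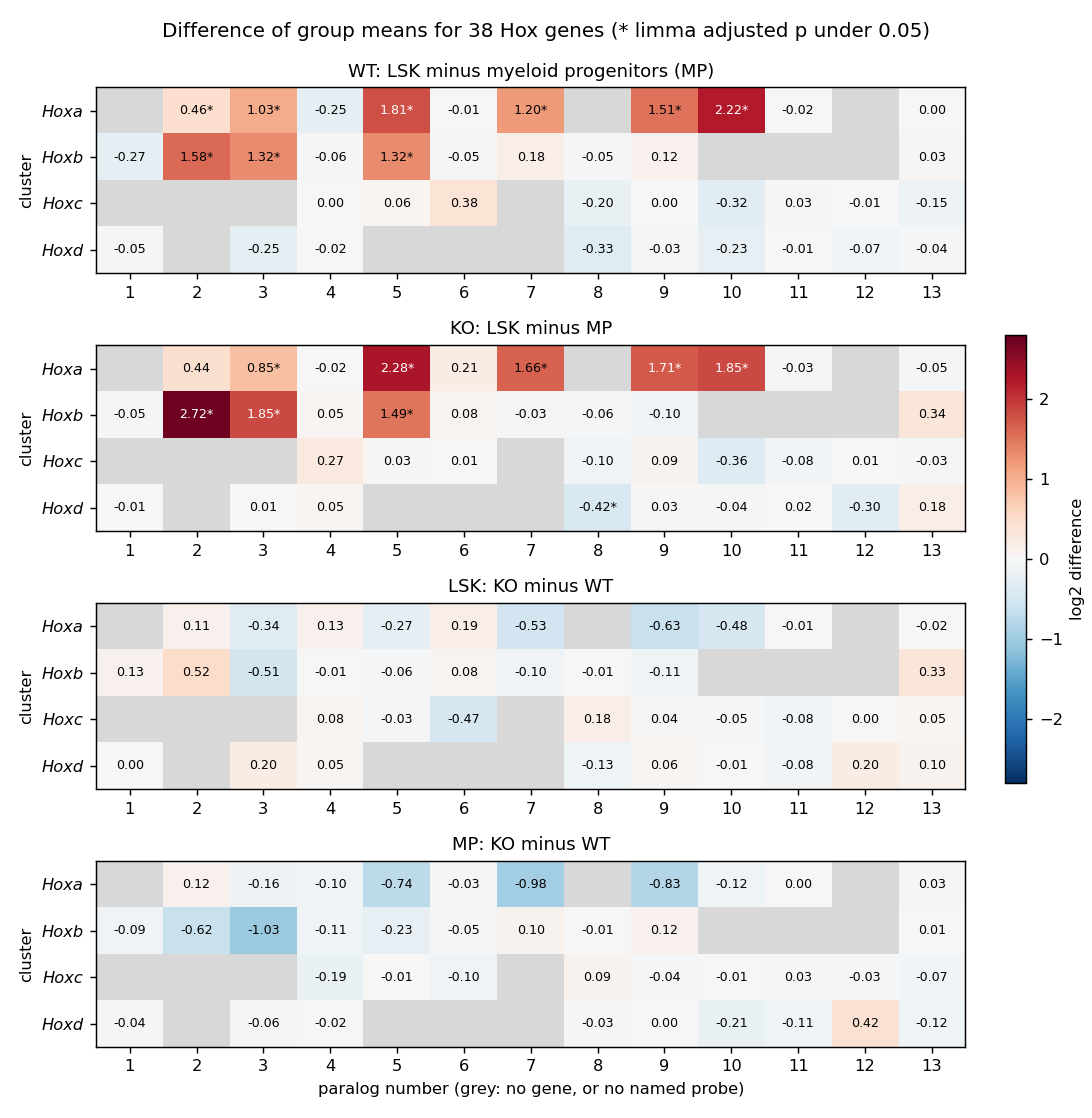
Differences of group means on the log2 scale for the 38 Hox genes, arranged by cluster (vertical) and paralog number (horizontal), in 4 comparisons; asterisks mark a limma adjusted p under 0.05, and grey cells have no gene or no named probe. The calls between populations lie in the Hoxa and Hoxb clusters except that of Hoxd8 (-0.42) between KO populations, and neither panel of KO minus WT carries an asterisk.

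The first comparison asked how Hox expression differs between stem cell-enriched LSK cells and myeloid progenitors of WT mice. In WT mice, 9 Hox genes were higher in LSK cells and 0 were lower: Hoxa2, Hoxa3, Hoxa5, Hoxa7, Hoxa9 and Hoxa10 of the A cluster and Hoxb2, Hoxb3 and Hoxb5 of the B cluster. That is 23.7% of the 38 genes, where 8.08% of all 17741 genes were called higher and 5.46% lower. Among genes above 6.5, the median Hox gene was 0.38 higher in LSK cells, against -0.06 over all 12215 genes of that level. In this limma fit 1 Hox gene was lower at an unadjusted p under 0.05, Hoxd8, where 13.4% of all genes were. Paralog groups 2, 3 and 5 were called in both clusters, whereas no gene of the C or D cluster was called, with differences from -0.32 to 0.38 in the C cluster and from -0.33 to -0.01 in the D cluster.

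Among the posterior genes of the A cluster, Hoxa9 and Hoxa10 promote self-renewal of early progenitors and drive leukemia when overexpressed. Hoxa10 read 9.39 and 9.03 in the LSK WT mice and 7.08 and 6.90 in the MP WT mice. Both LSK mice were far above both MP mice, and the difference was 2.22 ± 0.22 (SE, n = 2 mice per group, limma adjusted p = 0.000139), or 4.66-fold. Hoxa9 read 10.30 and 9.68 in LSK cells and 8.84 and 8.12 in MP cells. The groups did not overlap, although the MP mice differed from each other by 0.72, and Hoxa9 was higher in LSK cells by 1.51 ± 0.30 (limma adjusted p = 0.00788), or 2.85-fold.

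The central genes Hoxa5 and Hoxa7 are also expressed in immature blood cells and are activated with Hoxa9 in leukemias with MLL fusions. Hoxa5 read 11.31 and 10.76 in LSK WT cells and 9.32 and 9.13 in MP WT cells. This separated the groups by more than 1 unit and gave a difference of 1.81 ± 0.25 (limma adjusted p = 0.00109), or 3.51-fold. Hoxa7 read 12.15 and 11.40 in LSK WT cells and 10.40 and 10.74 in MP WT cells. Mouse 1 was the highest of all mice for this gene, and the difference was 1.20 ± 0.27 (limma adjusted p = 0.0133), or 2.3-fold. Hoxa6, which lies between them in the cluster, was dim, with mouse means from 6.02 to 6.35.

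Of the anterior genes of the A cluster, Hoxa3 read 7.86 and 7.11 in LSK WT cells and 6.63 and 6.28 in MP WT cells, a difference of 1.03 ± 0.22 (limma adjusted p = 0.0158). The MP mean of 6.45 was below the level of 6.5, so no fold is given. Hoxa2 read 7.06 and 6.93 in LSK WT cells and 6.59 and 6.49 in MP WT cells, a difference of 0.46 ± 0.13 (limma adjusted p = 0.047). It was the smallest of the 9 differences and lay just inside the threshold. Hoxa4 stood between called genes but was flat, with mouse means from 7.73 to 8.15 and a difference of -0.25.

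In the B cluster, Hoxb5, a marker of long-term hematopoietic stem cells, read 8.50 and 8.65 in LSK WT cells and 7.25 and 7.27 in MP WT cells. The mice of each group lay close together, and the difference was 1.32 ± 0.26 (limma adjusted p = 0.00776), or 2.5-fold. Hoxb2 read 9.51 and 9.83 against 7.73 and 8.45, a difference of 1.58 ± 0.37 (limma adjusted p = 0.0239), or 2.99-fold. Hoxb3, whose loss together with Hoxb4 reduces stem cell proliferation, read 8.88 and 8.50 against 7.56 and 7.18, a difference of 1.32 ± 0.25 (limma adjusted p = 0.00693), or 2.5-fold. No mouse of either population crossed into the range of the other for these genes. The second Hoxb3 probe did not show this: it stayed between 7.04 and 7.21 in all 8 mice, and its difference was -0.08. Of the other B genes, Hoxb1 was 0.27 lower in LSK cells without passing the test, and Hoxb4, Hoxb6, Hoxb7, Hoxb8, Hoxb9 and Hoxb13 were dim.

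**Figure D2:**
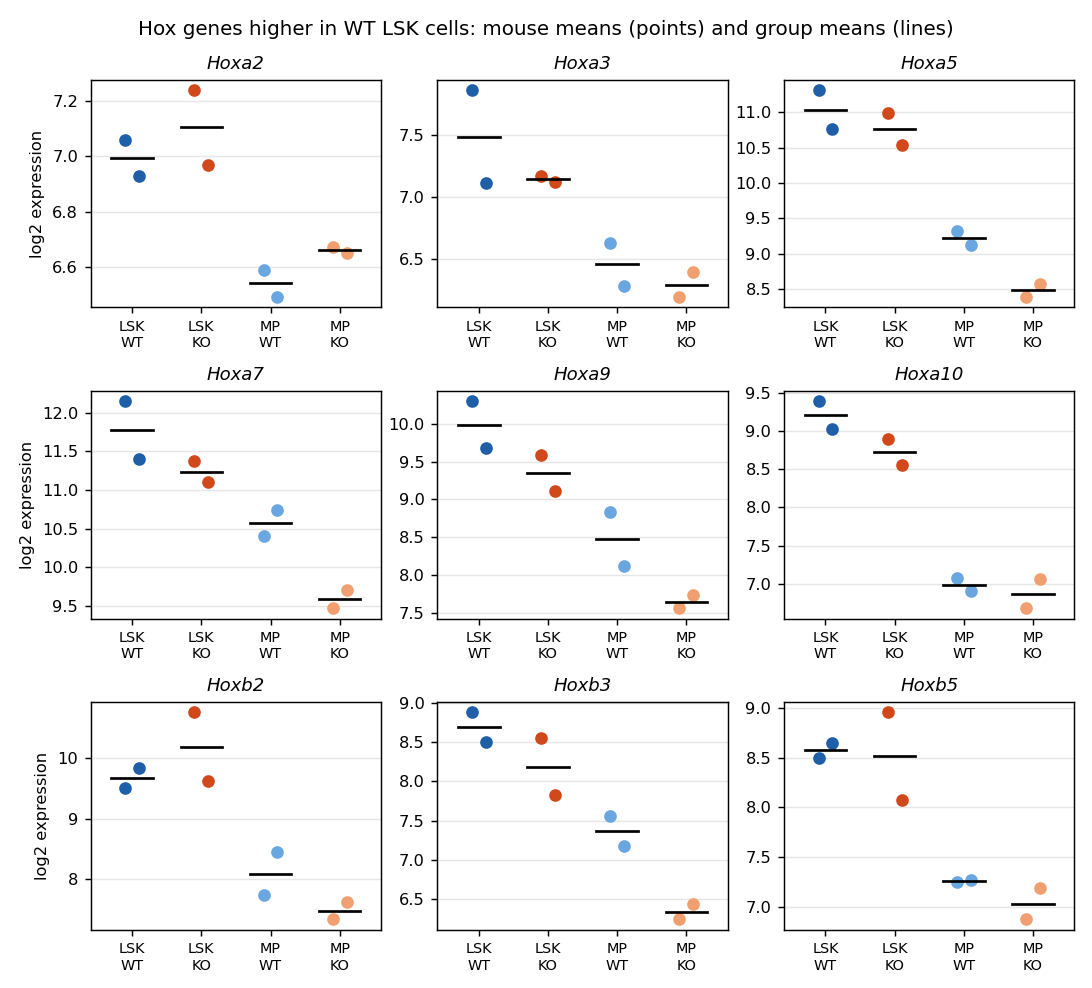
Log2 expression of the 9 Hox genes called higher in WT LSK cells, each point the mean of the 3 arrays of a mouse and each black line the mean of the 2 mice of a group; each panel has its own vertical axis, which does not start at 0. LSK mice lie above MP mice for every gene, and for Hoxa7 and Hoxb3 the MP KO mice (9.47 and 9.70, and 6.24 and 6.43) lie lowest.

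How many Hox genes were called depended on single WT mice. Without mouse 1 only 3 of them were called (Hoxa5, Hoxa10 and Hoxb5). Without mouse 5 there were 5, without mouse 6 another set of 5, and without both WT mice with the Kdm5d signal 4. Hoxa5 and Hoxa10 passed in all 17 alternative settings tried for them.

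The Hox difference between populations was also seen in the mice labelled KO. In KO mice 8 Hox genes were higher in LSK cells than in MP cells, where 7.26% of all genes were, and these were the genes called in WT mice other than Hoxa2. Hoxb2 read 10.76 and 9.62 in LSK KO cells and 7.33 and 7.61 in MP KO cells, a difference of 2.72 ± 0.37 (limma adjusted p = 0.00229), or 6.58-fold. Hoxa5 read 10.99 and 10.54 against 8.39 and 8.58, a difference of 2.28 ± 0.25 (limma adjusted p = 0.000424), or 4.86-fold. Neither gene's LSK KO mice came within 1 unit of the MP KO mice. The differences of the other 6 genes ran from 0.85 (Hoxa3) to 1.85 (Hoxa10 and Hoxb3). The MP KO means of Hoxa3 (6.29) and Hoxb3 (6.34) were below the level of 6.5, so their differences carry no fold. Hoxa2 differed by 0.44 without passing (limma adjusted p = 0.0535).

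In KO mice 1 Hox gene was lower in LSK cells: Hoxd8, at 6.08 and 6.31 against 6.55 and 6.68, a difference of -0.42 ± 0.11 (limma adjusted p = 0.0249), where 5.49% of all genes were lower. In WT mice the same gene read 6.32 and 6.32 against 6.62 and 6.67, a difference of -0.33 (limma adjusted p = 0.0673). All LSK mice were below all MP mice in both genotypes, and the LSK readings lay at or below 6.5, so they carry no fold. The call was lost in 5 of 16 alternatives, among them the fits without mouse 2, 7 or 8.

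The next comparison asked what loss of BAP1 did to Hox expression in LSK cells. No Hox gene was called between KO and WT LSK cells by limma on mouse means, where 4.64% of all genes were called. When limma was run on the 24 single arrays, with mouse as a random block, it called 4: Hoxb13 higher and Hoxa9, Hoxa10 and Hoxb3 lower, where this fit called 15.1% of all genes. It used the same correlation between arrays of a mouse, 0.442, for every probe. The 9 variable Hox genes varied less between arrays of a mouse (median 0.11) than between mice (0.31). For such genes this fit can count arrays as more independent than they are. At an unadjusted p under 0.05, 3 of 38 Hox genes differed (7.89%, against 16.6% of all genes): Hoxa6 was 0.19 higher, Hoxa10 0.48 lower and Hoxc6 0.47 lower. The median change of the Hox genes above 6.5 was -0.05, against 0.04 over all genes above 6.5, and it was 0.0013 without mouse 1 and 0.01 without mouse 3. The KO mice lay above both WT mice for 7 Hox genes and below both for 7, which is 18.4% each, where 25.7% and 20.9% of all genes separated in these directions. These counts include dim genes. Of the 19 Hox genes above 6.5, 2 lay above (10.5%, against 27.8% of all genes above 6.5) and 5 below (26.3%, against 23.2%).

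Within this the A cluster leaned lower: 5 of its 7 genes above 6.5 were below 0, with a median of -0.34. Hoxa9 read 10.30 and 9.68 in LSK WT cells and 9.59 and 9.11 in LSK KO cells. The KO mice were both below the WT mice, the nearest pair by less than the WT mice differed from each other, and the difference was -0.63 ± 0.30 (95% interval -1.29 to 0.03, limma adjusted p = 0.338). Leaving out a single mouse moved it to -0.32 (mouse 1), -0.39 (mouse 4) or -0.95 (mouse 3). Hoxa7 read 12.15 and 11.40 against 11.37 and 11.11, a difference of -0.53 (95% interval -1.12 to 0.06, limma adjusted p = 0.376), and without mouse 1 the difference was -0.16. Hoxa10 read 9.39 and 9.03 against 8.89 and 8.56, and without mouse 1 its difference was -0.30 instead of -0.48. Hoxa5 overlapped between genotypes (11.31 and 10.76 against 10.99 and 10.54), and its difference of -0.27 came to 0.0013 without mouse 1. In the B cluster, Hoxb2 went the other way, at 9.51 and 9.83 in WT and 10.76 and 9.62 in KO cells, a difference of 0.52 (95% interval -0.32 to 1.36), with mouse 2 high and mouse 4 within the range of the WT mice.

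Some markers of the sorted populations moved in the same LSK KO mice. The mean of the 8 myeloid progenitor markers was 11.56 to 11.97 in LSK WT mice and 12.31 to 12.77 in LSK KO mice, and 3 of the 8 were called higher: Elane by 1.91, Ctsg by 1.21 and Cebpe by 0.91, all genes of granulocyte development. The mean of the 8 LSK markers was 11.37 to 11.73 in LSK WT mice and 10.97 to 11.16 in LSK KO mice. Their median difference was -0.52, and 3 of the 8 had an unadjusted p under 0.05 by limma. Of the 8, 1 was called lower, Tek at -1.73 ± 0.19 (limma adjusted p = 0.000807), and 0 were called higher. Mecom leaned higher without a call, at 0.24 (95% interval -0.33 to 0.80). The B cell markers moved too: the mean of 6 was 8.79 to 8.87 in LSK WT mice and 7.41 to 7.74 in LSK KO mice, and 3 of the 6 were called lower by limma. Of these Vpreb1, part of the receptor of early B cells, read 13.06 and 13.23 in LSK WT mice and 9.42 and 8.50 in LSK KO mice. The part of these markers in the Hox values was not tested. In RNA of a sorted population, fewer cells that express a gene and less of its RNA per cell cannot be told apart.

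In myeloid progenitors the readings leaned lower for more Hox genes, again without a call. No Hox gene was called between KO and WT MP cells by limma on mouse means, where 2.64% of all genes were called. Run on the 24 single arrays, it called 4 lower, Hoxa5, Hoxa7, Hoxa9 and Hoxb3, where this fit called 5.48% of all genes lower. The same limit holds here: these genes may have arrays of a mouse counted as more independent than they are. By limma on mouse means at an unadjusted p under 0.05, 5 of 38 were lower and 0 higher, which is 13.2% where 6.56% of all genes were lower at that level. These include the dim gene Hoxb4 (-0.11). Of the 19 above 6.5, 4 were lower (21.1%, against 8.25% of all genes above 6.5). The median over the Hox genes above 6.5 was -0.12, against 0.01 over all genes above 6.5, and 16 of the 19 were below 0. Both KO mice lay below both WT mice for 11 Hox genes (28.9%, against 20.8% of all genes) and above them for 2 (5.26%, against 20.3%). Some of the 11 were dim. Of the 19 above 6.5, 7 lay below (36.8%, against 22.1% of all genes above 6.5) and 2 above (10.5%, against 22.4%).

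The 4 largest differences were those of Hoxb3, Hoxa7, Hoxa9 and Hoxa5. Hoxb3 read 7.56 and 7.18 in MP WT cells and 6.24 and 6.43 in MP KO cells, a difference of -1.03 ± 0.25 (95% interval -1.59 to -0.47, limma adjusted p = 0.0686). Both KO readings fell below the level of 6.5, and the second Hoxb3 probe differed by 0.02. Hoxa7 read 10.40 and 10.74 in WT and 9.47 and 9.70 in KO cells, a difference of -0.98 ± 0.27 (95% interval -1.57 to -0.40, limma adjusted p = 0.104), or 1.98-fold. The gap between the genotypes was wider than the spread within either of them.

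Hoxa9 read 8.84 and 8.12 in MP WT cells and 7.56 and 7.73 in MP KO cells. The groups did not overlap, but the WT mice were farther apart than mouse 6 was from the KO mice, and the difference was -0.83 ± 0.30 (95% interval -1.49 to -0.17, limma adjusted p = 0.273). It was -0.47 without mouse 5 and -1.19 without mouse 6. Hoxa5 read 9.32 and 9.13 in WT and 8.39 and 8.58 in KO cells, a difference of -0.74 ± 0.25 (95% interval -1.29 to -0.18, limma adjusted p = 0.236). Hoxb2 read 7.73 and 8.45 against 7.33 and 7.61, a difference of -0.62 (95% interval -1.46 to 0.22). Hoxa10, at 7.08 and 6.90 against 6.68 and 7.06, overlapped, with an interval from -0.59 to 0.36, and Hoxb5 differed by -0.23 with an interval from -0.80 to 0.35.

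Markers of other cells moved in the MP KO mice as well. The mean of the 6 B cell markers was 8.52 to 8.69 in MP WT and 7.50 to 7.57 in MP KO mice, with 3 of 6 called lower by limma, and Vpreb1 read 12.04 and 13.01 in MP WT and 9.62 and 9.21 in MP KO mice. The mean of the 6 mature myeloid markers was 9.51 to 9.62 in MP WT and 9.02 to 9.26 in MP KO mice, with 1 of 6 called lower, the macrophage gene Adgre1. The means of the markers of the sorted populations overlapped between genotypes: the myeloid progenitor markers averaged 13.36 to 13.40 in MP WT and 13.29 to 13.48 in MP KO mice, and the LSK markers 9.38 to 9.50 and 9.34 to 9.49. Of the LSK markers Cd34, a surface protein of early progenitors, was lower in MP KO cells by itself, at -1.18 ± 0.18 (limma adjusted p = 0.00647). It was the only 1 of the 8 called, 4 had an unadjusted p under 0.05 by limma, and their median was 0.04. Mecom, another LSK marker, read higher, at 8.72 and 8.76 in MP WT and 9.33 and 10.16 in MP KO mice. The part of these markers in the Hox values was not tested.

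**Figure D3:**
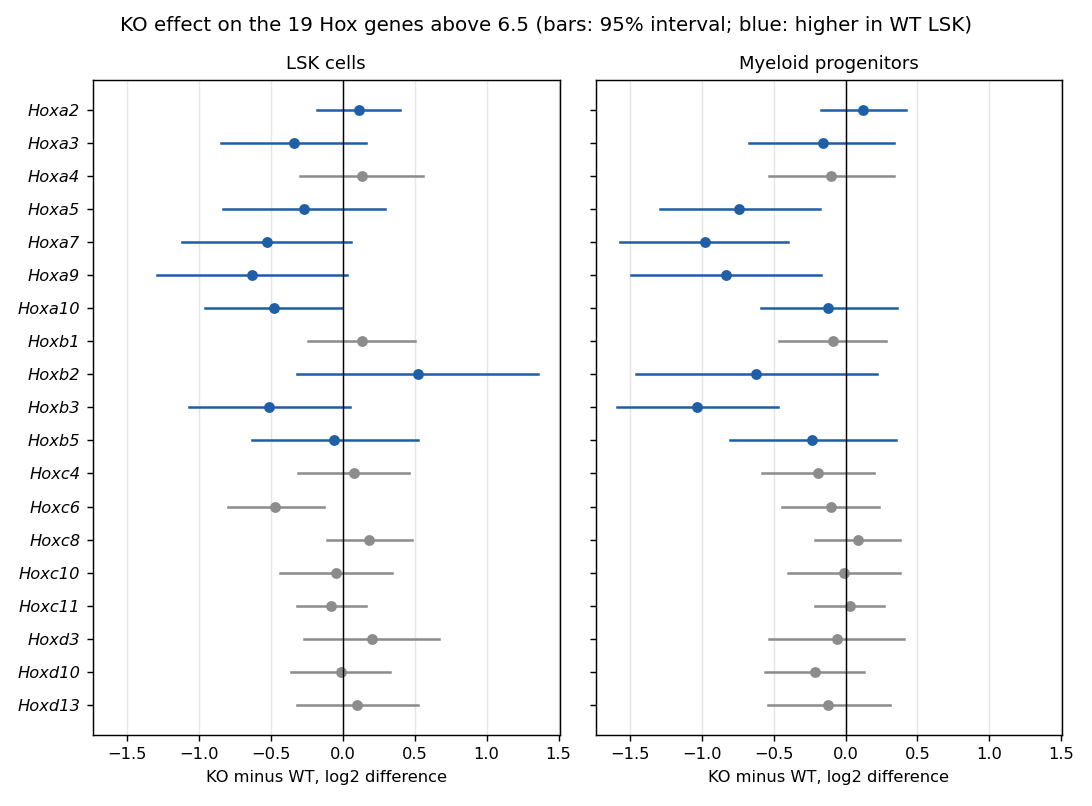
KO minus WT log2 difference of the 19 Hox genes above 6.5 in LSK cells and myeloid progenitors; points are limma estimates from 2 mice per group, bars their 95% intervals without adjustment for the number of genes, and blue marks the 9 genes called higher in WT LSK cells. In myeloid progenitors the intervals of Hoxa5, Hoxa7, Hoxa9 and Hoxb3 lie below 0, and in LSK cells those of Hoxa10 and Hoxc6 do, but no gene passed after adjustment.

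Averaged over both populations, 2 Hox genes were lower in KO mice: Hoxb3 at -0.77 ± 0.18 (limma adjusted p = 0.0255) and Hoxa7 at -0.76 ± 0.19 (limma adjusted p = 0.0343). That is 5.26% of the 38, where 4.85% of all genes were called lower and 7.95% in either direction, so the Hox genes were called about as often as genes at large. Hoxa9 at -0.73 ± 0.21 (limma adjusted p = 0.0651) and Hoxa5 at -0.50 ± 0.18 (limma adjusted p = 0.138) did not pass. Hoxa9 was called in 6 of 16 alternatives (both fits to single arrays, medians of a mouse's arrays, probes above 6.5, and without mouse 3 or 6) and Hoxa5 in 2 of 16, the fits to single arrays. This mean uses the same mice as the comparisons within populations and adds no independent animals to them. The calls for Hoxa7 and Hoxb3 were both lost without mouse 1, 4, 5, 7 or 8 and without both mice with the Kdm5d signal, that for Hoxa7 also without mouse 6. When the probes of a gene were averaged, Hoxb3 was at -0.37 and not called.

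Whether BAP1 loss acted on Hox genes differently in LSK cells and in MP cells was tested directly. No Hox gene was called for this difference by limma, where 0.062% of all genes were, and 1 of 38 (Hoxa6) had an unadjusted p under 0.05, where 6.35% of all genes did. The largest was that of Hoxb2, 0.52 in LSK cells and -0.62 in MP cells, with a difference of 1.14 ± 0.53 (limma adjusted p = 0.837). The KO minus WT changes of Hoxa5, Hoxa7 and Hoxb3 in MP cells were therefore not shown to differ from those in LSK cells.

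The 9 genes that were higher in WT LSK cells were also read between the mice of a group. Mouse 1 read above mouse 3 for 7 of the 9, with a median gap of 0.38. Mouse 2 read above mouse 4 for 9 of 9, with a median gap of 0.45 and a gap of 1.14 for Hoxb2. Mouse 5 read above mouse 6 for 6 of 9, and mouse 7 above mouse 8 for 1 of 9, with a median gap of -0.20. Their median KO minus WT change was -0.34 in LSK cells and -0.62 in MP cells, against 0.09 and -0.09 for the other 10 Hox genes above 6.5. The 9 genes were chosen by the comparison of WT populations, which shares the WT mice with these changes. A high reading in a WT LSK mouse raises that comparison and lowers the change in LSK cells. A low reading in a WT MP mouse raises that comparison and raises the change in MP cells.

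The C and D clusters were nearly flat. Over their 8 genes above 6.5, KO minus WT differences ran from -0.47 to 0.20 in LSK cells and from -0.21 to 0.09 in MP cells. The gene at -0.47 was Hoxc6, a central paralog, which read 7.24 and 7.26 in LSK WT cells and 6.91 and 6.66 in LSK KO cells. The KO mice lay below the WT mice, but the difference did not pass (SE 0.15, limma adjusted p = 0.129), and the reading of mouse 4 included 1 array at 6.28 beside others of its group between 6.80 and 7.01. Hoxd3 read 7.75 and 7.98 in LSK WT, 7.97 and 8.16 in LSK KO, 7.94 and 8.30 in MP WT and 8.25 and 7.87 in MP KO cells, with overlapping groups. Hoxb13 and Hoxd12, both dim posterior genes, each had a single mouse with a higher mean. Hoxb13 read 6.77 in mouse 2 and 6.05 to 6.13 in the others, and Hoxd12 read 6.86 in mouse 8 and 5.89 to 6.22 in the others. For Hoxd12 this rested on 1 array of mouse 8 at 8.74, with the other MP KO arrays between 5.86 and 6.01.

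The cofactors that bind DNA with Hox proteins were read next, from a list of 9 genes of which 6 had a named probe. Meis1, the Hoxa9 partner in stem cells and leukemia, read 13.67 and 13.49 in LSK WT, 13.07 and 13.11 in LSK KO, 11.30 and 11.24 in MP WT, and 12.00 and 11.81 in MP KO mice. LSK mice were above MP mice in both genotypes, with a difference of 2.31 ± 0.18 in WT mice (limma adjusted p = 5.9e-05) and of 1.19 ± 0.18 in KO mice (limma adjusted p = 0.00205). KO mice lay below WT mice in LSK cells, with a difference of -0.49 (limma adjusted p = 0.183), and above them in MP cells, with one of 0.63 (limma adjusted p = 0.116). The groups did not overlap in either population, but the difference between these effects, -1.12 ± 0.25, did not pass (limma adjusted p = 0.193).

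Pbx3, a Pbx protein that stabilises Hoxa9 and Meis1 on DNA, read 8.83 and 9.02 in LSK WT, 7.97 and 8.23 in LSK KO, 8.37 and 8.58 in MP WT and 7.79 and 8.17 in MP KO mice. Its KO mice lay below the WT mice in both populations, and averaged over both it was lower, at -0.66 ± 0.15 (limma adjusted p = 0.0221). That call was lost without mouse 2, 3, 6 or 7 and without both mice with the Kdm5d signal. No cofactor was called within a single population between KO and WT by limma on mouse means. On the 24 single arrays with mouse as a random block, limma called Meis1 lower in LSK KO cells (adjusted p = 0.0361) and higher in MP KO cells (adjusted p = 0.00784). That fit used 1 correlation between arrays of a mouse for all probes.

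**Figure D4:**
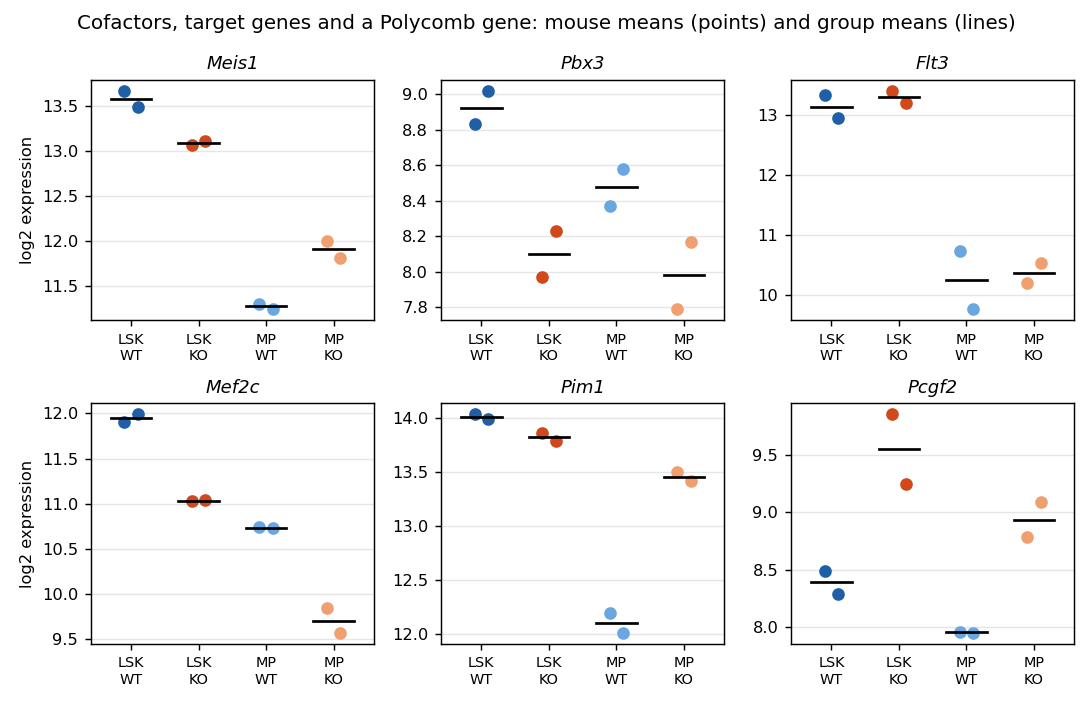
Log2 expression of the cofactors Meis1 and Pbx3, the Hoxa9 and Meis1 target genes Flt3, Mef2c and Pim1, and the Polycomb gene Pcgf2; points are mouse means of 3 arrays, lines are means of 2 mice, and each panel has its own axis, which does not start at 0. Mef2c lies lower and Pcgf2 higher in KO mice of both populations, and Pim1 lies higher in MP KO mice (13.50 and 13.41) than in MP WT mice (12.19 and 12.01).

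Of 12 genes known as targets of Hoxa9 and Meis1, 11 had a named probe. In WT mice 6 of the 11 were higher in LSK cells and 0 lower, where 8.08% of all genes were higher and 5.46% lower. They included Flt3, a receptor kinase of early progenitors, by 2.89 ± 0.30 (limma adjusted p = 0.000233). Between KO and WT, Mef2c, a transcription factor of lymphoid and early progenitor cells, was lower in both populations. It read 11.91 and 11.99 in LSK WT and 11.03 and 11.04 in LSK KO mice (-0.92 ± 0.20, limma adjusted p = 0.0254), and 10.74 and 10.73 in MP WT and 9.84 and 9.57 in MP KO mice (-1.03 ± 0.20, limma adjusted p = 0.0198). The genotypes did not overlap in either population, but the calls within a population were lost in 8 and 6 of 17 alternatives, while that of the mean over both was lost in 1 of 16, with probes averaged (-0.62, limma adjusted p = 0.0621). Beside these values, 3 of 6 B cell markers were called lower in each population, with a median of -0.63 in each, and their part in the Mef2c values was not tested.

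Pim1, a kinase induced by cytokines, was higher in MP KO than in MP WT cells by 1.36 ± 0.16 (limma adjusted p = 0.00161), or 2.56-fold, in all 17 alternatives tried. In LSK cells it read 14.03 and 13.99 in WT and 13.86 and 13.78 in KO mice, and the difference between the effects, -1.55 ± 0.23, passed (limma adjusted p = 0.0424). Flt3 was not called between KO and WT: it read 13.32 and 12.94 in LSK WT and 13.40 and 13.19 in LSK KO mice. The other called targets in WT LSK cells were Sox4, Lmo2, Pim1, Mef2c and Camk2d, with differences from 0.63 to 1.91. The median of the 11 genes between KO and WT was -0.16 in LSK cells and 0.12 in MP cells, so the list as a whole had no common direction.

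Of the regulators of the clusters, 18 of 21 genes of the activating machinery (MLL complexes and their partners, histone acetyltransferase complexes, and the Cdx factors) had a named probe. The acetyltransferases Kat6a and Kat7 had none and were not read. Of these 18, 0 were called in any of the 6 comparisons by limma, with medians from -0.03 to 0.06. At an unadjusted p under 0.05 there was 1 in LSK cells and 0 in MP cells between KO and WT, and 4 between WT populations. Of 32 Polycomb genes 29 had a named probe. In WT mice 4 of the 29 were higher in LSK cells (8.08% of all genes) and 0 lower (5.46%): Cbx7 by 1.48, Cbx6 by 1.25, Ezh1 by 0.99 and Ring1 by 0.81. Cbx7 and Ezh1 are subunits known for maintaining hematopoietic stem cells.

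Between KO and WT, Pcgf2, a subunit of Polycomb repressive complex 1, read 8.49 and 8.29 in LSK WT and 9.85 and 9.24 in LSK KO mice, and 7.96 and 7.95 in MP WT and 8.78 and 9.09 in MP KO mice. All KO mice were above all WT mice of their population. It was higher by 1.15 ± 0.24 in LSK cells (limma adjusted p = 0.0229) and by 0.98 ± 0.24 in MP cells, where it did not pass (limma adjusted p = 0.0658), and its mean over both, 1.07 ± 0.17 (limma adjusted p = 0.00318), passed in all 16 alternatives tried. The call in LSK cells was lost in 7 of 17, among them those without mouse 1, 2 or 3. Ring1, a ubiquitin ligase of the same complex, was higher in the mean by 0.66 ± 0.14 (limma adjusted p = 0.0149), a call lost in 5 of 16 alternatives: without mouse 1, 7 or 8, without both mice with the Kdm5d signal, and with probes averaged (0.35). Rnf2, the other ligase of that complex, leaned the other way without a call, at -0.54 ± 0.18 in the mean (limma adjusted p = 0.101). Its KO mice lay below the WT mice in both populations. Phc3, another subunit of the complex, was lower, at -0.87 ± 0.21 in LSK cells (limma adjusted p = 0.0461) and -0.73 ± 0.15 in the mean (limma adjusted p = 0.0138). The LSK call was lost in 11 of 17 alternatives, among them those without mouse 1, 2, 3, 5, 6, 7 or 8, and that of the mean in 4 of 16, without mouse 1 or 8, without both mice with the Kdm5d signal, and with probes averaged (-0.38). Of the 29 genes, 1 was called higher and 1 lower in LSK cells, where 4.64% of all genes were called in either direction. In MP cells 0 were called, against 2.64% of all genes. In the mean 2 were higher and 1 lower, against 7.95% of all genes in either direction. The list was thus called about as often as genes at large. The median of the 29 genes was 0.02 in LSK cells and -0.01 in MP cells.

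Homeobox genes outside the clusters and the neighbours of the clusters were read for comparison. Of 30 other homeobox genes 25 had a named probe. In WT mice 5 of the 25 were higher in LSK cells, against 8.08% of all genes, and 0 were lower, against 5.46%, with Zfhx3 at 1.36, Zeb1 at 1.03, Satb1 at 0.95 and Pdx1 at 0.88 named by rule. Between KO and WT, 1 of 25 was called in LSK cells, against 4.64% of all genes: Zeb2, a regulator of hematopoietic differentiation, lower at -1.14 ± 0.21 (limma adjusted p = 0.0126), and 0 in MP cells by limma, where 1 had an unadjusted p under 0.05. Averaged over both populations 2 of the 25 were called lower, against 4.85% of all genes. These were Zeb2 at -0.69 and Zfhx3 at -0.57, the latter lost in 9 of 16 alternatives. The Zeb2 call was lost in LSK cells without mouse 1, 2 or 3 and without both mice with the Kdm5d signal (4 of 17 alternatives), and in the mean without mouse 3, 6 or 8 and without those mice (4 of 16). Of the 24 protein-coding genes that flank the clusters, 3 on each side in the RefSeq order, 17 had a named probe. Between KO and WT 0 of them were called in either population or in the mean by limma. At an unadjusted p under 0.05 there was 1 in LSK cells, Skap1 (-0.54, limma adjusted p = 0.0541), and 0 in MP cells. Between WT populations 1 of the 17 was called, Skap1 beside the B cluster, higher in LSK cells by 0.67 ± 0.14 (limma adjusted p = 0.00878). Among all genes 8.08% were called higher in that comparison.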

How the data were processed

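Per the labels, total RNA of sorted cells was amplified by in vitro transcription, coupled to Cy5 and hybridised to 24 one-colour arrays. The authors deposited log2 expression values, and limma is the only tool their processing notes name, with no version. Values lay between 5.66 and 15.93. Sorted from low to high, they differed between the 24 arrays by 0.0451 or less at each position, which is the pattern quantile normalization leaves. The sources used here do not say how background and poor spots were treated.

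Gene names came from the platform annotation, brought up to date with RefSeq (GRCm38.p6). Of 22439 probes, 18213 matched a current symbol, 2126 a synonym and 36 only the array's own name, and 2064 stayed unnamed. Each mouse entered limma 3.58.1 (R 4.3.3) as the mean of its 3 arrays. The model had 4 group means, eBayes used trend and robust, and 4 residual degrees of freedom were joined by a prior with a median of 6.91. Tests were two-sided, with Benjamini-Hochberg adjustment across probes. The procedure was tested on simulated data for the comparison of KO with WT LSK cells. It recovered 32% of log2 changes of 0.5, 71.8% of changes of 1 and 95.6% of changes of 2. Of its calls 8.26% were false, a larger share than the adjusted threshold aims at. The changed probes were drawn at random from all 22439, dim ones included. Dim probes can have a small SE, such as 0.04 for Hoxa11 in this comparison, against 0.30 for Hoxa9. The recovered shares are therefore not those of the variable Hox genes, for which they can be too high. Changes of 0.5 were missed more often than found, so an absent call for a Hox gene does not show an absent change. The 2 mice per group limit the precision.

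All Hox genes could be named. Of each other list, members called in a KO minus WT comparison or between WT populations were named, up to 4 per list and comparison, with Meis1, Bap1, Rnf2 and flanking genes. Called members named beyond 4, and Rnf2, were chosen after their values were seen. The members, lists and tests were chosen with earlier results of these data known.

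The alternatives used single arrays with mouse as a random block, without or with array number as a replicate block, array medians, only the groups compared, plain eBayes, only probes above 6.5, and the average of a gene's probes. Others left out each mouse in turn or both WT mice with the Kdm5d signal, or moved the level that defines a dim gene.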

Additional observations from a re-analysis of the deposited data

Results flagged for a closer look

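In 12 of 160 groups of 6 arrays, a single array of a Hox probe stood apart from the other 5 by more than Dixon's limit. For 6 independent values chance gives about 1 in 20. Each group held 3 arrays from each of 2 mice, so that rate does not apply to this count. The array of mouse 8 that read 8.74 for Hoxd12 stood farthest out, with the other MP KO arrays between 5.86 and 6.01, and Hoxd12 also had a high array of mouse 2 (6.83, others 5.88 to 6.07) and of mouse 6 (6.06, others 5.95 to 5.99). Low arrays of mouse 4 were seen for Hoxc6 (6.28, others 6.80 to 7.01), Hoxb7 (6.01, others 6.45 to 6.56) and Hoxc4 (6.97, others 7.23 to 7.28), and low arrays of mouse 1 for Hoxb1 (7.15, others 7.37 to 7.46) and Hoxd13 (6.65, others 7.08 to 7.15). Hoxb5 had a low array of mouse 7 (6.38, others 7.06 to 7.25). High arrays were those of mouse 3 for Hoxb9 (6.52, others 6.13 to 6.22), of mouse 5 for Hoxb6 (6.36, others 6.12 to 6.19) and of mouse 6 for the second Hoxb3 probe (7.40, others 7.01 to 7.15).

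For 2 dim genes both KO mice lay above the WT mice in LSK cells and below them in MP cells. The differences between the effects were 0.22 for Hoxa6 (limma adjusted p = 0.799) and 0.07 for Hoxd4 (limma adjusted p = 0.917), so neither passed.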

How the results depend on the processing

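Fitted to single arrays with mouse as a random block, 4 Hox genes were called between KO and WT in LSK cells, 4 in MP cells and 4 in the mean, and with array number added as a replicate block 3, 4 and 4. Each of these fits used 1 correlation between arrays of a mouse for all probes (0.442 and 0.443). For genes that vary mainly between mice, this can count arrays as more independent than they are. Array numbers did not pair the samples: deviations of arrays with the same number correlated with a median of 0.00567, those of other numbers with 0.00488. In MP cells the compared groups alone gave 1 call, as did probes above 6.5. In the mean, eBayes without trend and robust gave 0 calls, averaged probes 1, and leaving out both WT mice with the Kdm5d signal 0. Without those mice 4 genes were called between WT populations. A level of 7.2 left 11 Hox genes above it. The MP median of -0.12 was -0.24 without the Kdm5d mice and -0.23 with the level of 7.2. Leaving out 1 mouse gave 0 to 2 calls in LSK cells, 0 to 1 in MP cells, 0 to 3 in the mean, 0 to 1 for the difference of effects and 3 to 10 between WT populations, and the MP median ran from -0.24 to -0.09. The calls gained included Hoxa6 and Hoxb13 without mouse 4, Hoxd12 without mouse 7 and Hoxb3 in MP cells without mouse 2 or 4. With 1 mouse left out, Hoxa5 in LSK cells ran from -0.54 to 0.0013, its sign turning without mouse 1 and without both Kdm5d mice (0.0013), and Hoxa10 in MP cells from -0.31 to 0.08, its sign turning without mouse 7. The cause of these shifts was not tested, and a fit without a mouse has fewer animals by construction.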
